A study of Danio rerio with 6 samples.

Results

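The Hox cluster genes were read in RNA of cells sorted as heart muscle cells from zebrafish embryos after knockdown of the transcription factor Gata4. They were chosen by name: every row of the count table whose gene name is hox, a cluster letter A to D and a paralogue number. This gave 38 of 27456 rows, spread over the 4 cluster letters and all paralogue groups from 1 to 13. The rule used no measured value. Of the Hox identifiers in the name table, 10 had no row and were not analysed here, among them those of hoxa13a, hoxa9a and hoxc11b.

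Hox genes encode homeodomain transcription factors that stand in clusters on the chromosomes. Genes with low paralogue numbers are first used early and far forward in the embryo, in hindbrain and pharyngeal arches, and genes with high numbers act later and further back, in trunk, tail and fins. Their proteins bind DNA together with the TALE homeodomain cofactors Meis and Pbx, and retinoic acid and Cdx factors set where they are switched on. In heart development, Hox genes of the forward groups are known from heart progenitors of the second heart field in mouse, and in zebrafish hoxb5b acts below retinoic acid to limit the number of atrial cells.

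There were 3 libraries from Gata4 morphant embryos and 3 from wildtype embryos, all at 24 hours post fertilization. All embryos carried tg(myl7::gfp), a transgene whose heart muscle promoter drives green fluorescent protein, and the labels call the sorted cells cardiomyocytes. Morphants were injected before the 4-cell stage with 2 nl of a 0.7 mM solution of a morpholino, an antisense oligomer that blocks a transcript. The labels do not say whether wildtype embryos received a control oligomer, so knockdown and injection cannot be told apart. About 200 embryos were pooled per tube, and no label ties the libraries to separate clutches. The p-values therefore cover just the spread between these libraries, which may be technical. The kit was mRNA-Seq for morphant replicate 1 and wildtype replicates 1 and 2, and TruSeq for morphant replicates 2 and 3 and wildtype replicate 3. The oligomer that defines the morphant group is the only sequence shown, since it is what separates the groups, and none of its bases is singled out.
Gata4 morpholino: tccacaggtgagcgattattgcttc

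Libraries held 12574486 to 37906530 counts in morphants and 15302189 to 21119399 counts in wildtype. Of these, the Hox rows took 9662, 3644 and 8454 counts in morphant replicates 1 to 3, and 1695, 1874 and 1816 counts in wildtype libraries 1 to 3. No Hox row was at 0 in any library, and single values ran from 2 to 1176 counts. Morphant replicate 2 stood apart from the other morphant libraries, so the counts of calls are also given without it. This was seen in these same data, and it is the morphant library without the Hox rise. Calls made without it are therefore selected on the outcome and are no independent support. For the gene lists, calls with another library left out are not given. Each of the 21 rows matched to heart muscle markers had reads in at least 1 library, which is no check of cell identity. They summed to 3031, 1708 and 2171 CPM (counts scaled to library size with TMM factors) in morphant libraries 1 to 3, against 7287, 3586 and 3108 CPM in wildtype libraries 1 to 3. Leukocyte markers, 20 rows, summed to 7058, 10756 and 14140 CPM in wildtype libraries 1 to 3, so the sorted cells were not heart muscle cells alone. No value is given for gata4, whose identifier had no row, so the labels were not checked on the targeted gene.

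Hox transcripts were several times more abundant in morphant replicates 1 and 3 than in any wildtype library, while morphant replicate 2 was at the wildtype level. Summed over the 38 rows, they took 600.2, 105 and 441 CPM in morphant libraries 1 to 3, against 111, 99.0 and 116 CPM in wildtype libraries 1 to 3. The mean was 382 ± 253 CPM in morphants and 109 ± 8.93 CPM in wildtype (SD, n = 3 each), so the groups overlap through morphant replicate 2 and most of the spread lies among morphants. Within the mRNA-Seq libraries the sum was 5.71 times the wildtype mean, and within the TruSeq libraries it was 2.34 times the wildtype library. In sorted bulk RNA, more cells of a type that uses Hox genes and more Hox RNA per cell cannot be told apart.

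**Figure D1:**
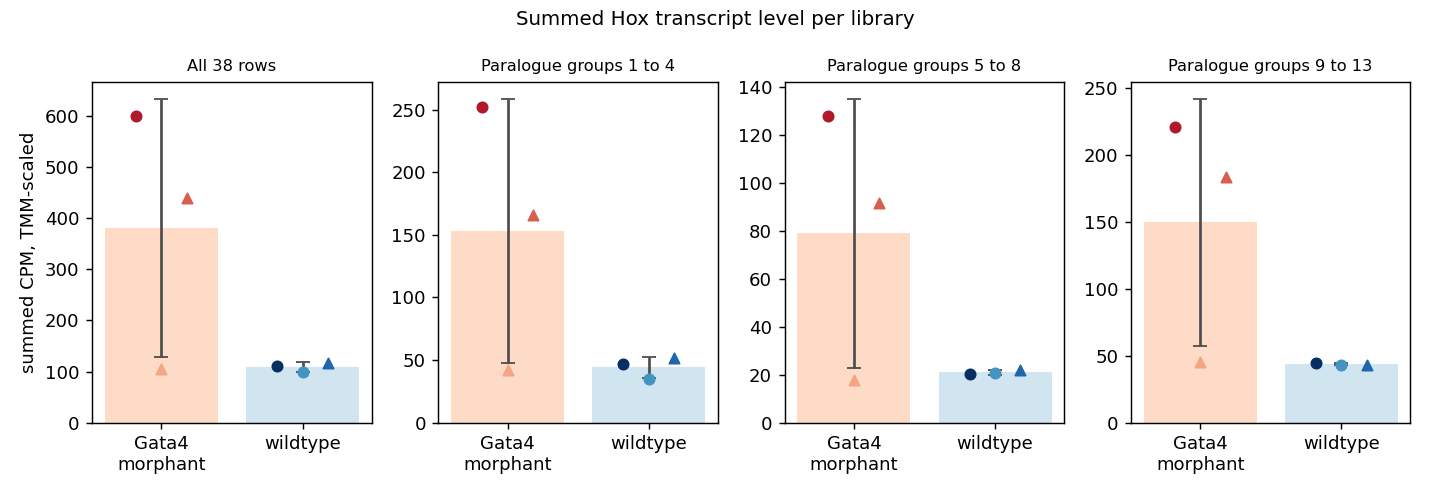
Summed CPM of the Hox rows in Gata4 morphant (left) and wildtype (right) libraries, for all 38 rows and for paralogue groups 1 to 4, 5 to 8 and 9 to 13; bars are means, error bars are SD (n = 3), circles are mRNA-Seq and triangles TruSeq libraries. In each panel morphant replicates 1 and 3 lie above all wildtype libraries and morphant replicate 2 lies inside their range for all rows and groups 1 to 4, under it for groups 5 to 8 and just above it for groups 9 to 13.

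No Hox gene passed the threshold when all genes were tested together. At an adjusted p under 0.05, edgeR's quasi-likelihood test, fitted with kit and group, called 0 of the 36 Hox genes that passed the filter on low counts, and 0% of all 18033 genes tested. The adjusted p of the 36 lay between 0.393 and 0.449. At an unadjusted p under 0.05, 27 of the 36 were higher in morphants and 0 were lower, where the shares of all genes tested were 7.62% and 4.92%. All 36 had a positive log2 fold change (morphant over wildtype), which 53.5% of all genes had. Their values ran from 1.01 to 3.02 with a median of 1.86, and SE from 0.52 to 1.06, where the median of all genes was 0.07. Scaling by library totals alone gave a Hox median of 2.30 and an all-gene median of 0.46, so the Hox median stood 1.79 above that of all genes with TMM scaling and 1.84 above it without. Of the 36 genes, 32 reached the filter's level in every wildtype library. The genes hoxc1a, hoxc5a, hoxb8b and hoxd11a did not, so their passing leaned on the morphant libraries. Of the 32, 25 had an edgeR unadjusted p under 0.05, and their median log2 fold change was 1.82 over all 32. Without the filter all 38 rows were tested, 38 were positive and 35 were higher at an unadjusted p under 0.05 (8.44% of all genes, of which 55.1% were positive), with a median of 1.86.

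Other tools and subsets gave other numbers of calls. DESeq2 called 4 of the 38 Hox genes at an adjusted p under 0.05, all higher in morphants, where 0.875% of all genes were called higher. These were hoxc3a, hoxc9a, hoxc10a and hoxc5a, with adjusted p = 0.0249, 0.0337, 0.0395 and 0.0467. limma-voom called 0, with 13 of 36 at an unadjusted p under 0.05 (5.33% of all genes higher). Without morphant replicate 2 edgeR called 33 of 37 Hox genes, all higher, where 8.19% of all genes were called higher, and the 4 not called were hoxa2b, hoxb2a, hoxd10a and hoxd11a. With another library left out, the number of Hox genes at an unadjusted p under 0.05 was 2 without morphant replicate 1 (1.48% of all genes), 10 without morphant replicate 3 (2.98%), 6 without wildtype replicate 1 (3.65%), 7 without wildtype replicate 2 (2.13%) and 25 without wildtype replicate 3 (7.02%). Each of these 5 fits called 0 Hox genes after adjustment. The authors' deposited table gave 12 Hox genes an adjusted p under 0.05, with a higher morphant base mean for each, where 2.3% of its rows were called higher and 0.262% lower. The smallest adjusted p of a Hox gene in the authors' deposited table were 0.000482 for hoxc3a and 0.00124 for hoxb1b.

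Between morphant libraries the levels differed more than between wildtype libraries, gene by gene. In morphant replicates 1 and 3, 37 of the 38 rows lay above every wildtype library, where 28.6% of all genes tested did, and the exception was hoxa13b. In morphant replicate 2, 27 rows lay inside the wildtype range, 8 below it and 3 above it, where 23.6% of all genes tested were below and 25.4% above. All 3 morphant libraries lay above all 3 wildtype libraries for hoxd12a and HOXA11 alone, 2 of the 38, where 7.76% of all genes tested showed this. With scaling by library totals it was hoxd12a and hoxd11a, where 11.6% did. Relative to the wildtype mean, the median Hox gene was 5.85-fold in morphant replicate 1, 0.969-fold in morphant replicate 2 and 4.30-fold in morphant replicate 3, while the median of all genes tested was 1.03-fold, 0.983-fold and 1.01-fold. The median coefficient of variation over the 38 rows was 65.8% among morphants and 30.9% among wildtype libraries.

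**Figure D2:**
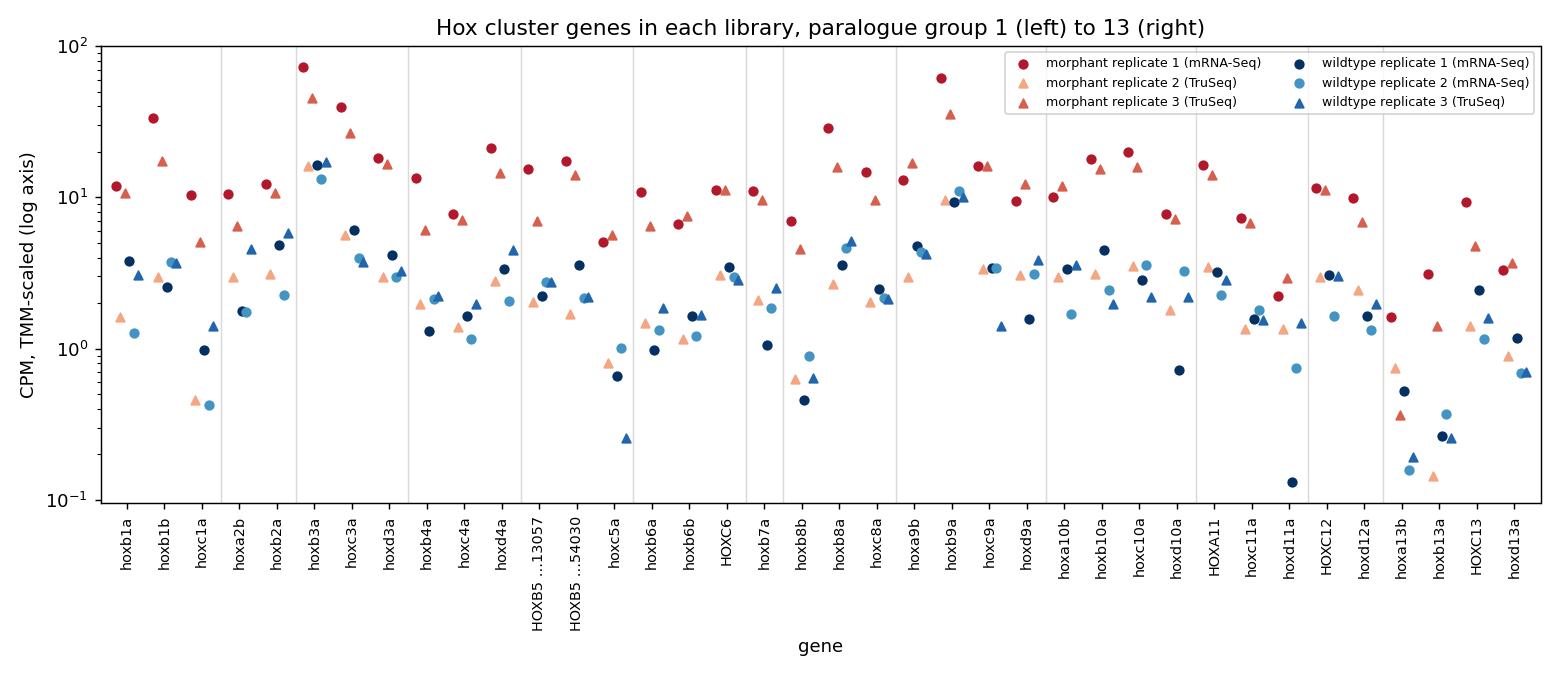
Level of each Hox row in each library (CPM, log axis), ordered from paralogue group 1 at the left to 13 at the right, with vertical lines between groups; red tones are Gata4 morphant and blue tones wildtype libraries, circles mRNA-Seq and triangles TruSeq. For 37 of the 38 rows the points of morphant replicates 1 and 3 lie above all blue points, and those of morphant replicate 2 lie mostly among them.

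Paralogue group 1 holds the genes that start Hox expression in the hindbrain. hoxb1b (ENSDARG00000054033), which acts early in hindbrain segmentation, had 33.4, 2.96 and 17.3 CPM in morphant libraries 1 to 3, against 2.56, 3.75 and 3.65 CPM in wildtype libraries 1 to 3. The groups overlap only through morphant replicate 2, and the log2 fold change was 2.45 (SE 0.77, unadjusted p = 0.0154 and adjusted p = 0.393, both from edgeR). hoxb1a, needed for identity of the fourth hindbrain segment, had 11.9, 1.61 and 10.7 CPM in morphants against 3.81, 1.27 and 3.08 CPM in wildtype. The third member, hoxc1a, had 10.4, 0.460 and 5.06 CPM in morphants against 0.984, 0.423 and 1.41 CPM in wildtype. Their edgeR unadjusted p were 0.0868 and 0.0546. Summed, the group showed a fold of 8.71 within mRNA-Seq and 2.34 within TruSeq libraries.

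Paralogue group 2 had the smallest log2 fold changes. hoxa2b, a selector gene of the second pharyngeal arch, had 1.31 (SE 0.67), and hoxb2a, expressed in hindbrain, had 1.01 (SE 0.65). The edgeR unadjusted p were 0.0899 and 0.165, and neither passed without morphant replicate 2 (adjusted p = 0.0722 and 0.0828). Within the TruSeq libraries their values were -0.051 and 0.12, against 2.51 and 1.72 within the mRNA-Seq libraries. Of the TruSeq morphants, replicate 3 lay above every wildtype library for both genes, at 6.46 CPM for hoxa2b and 10.6 CPM for hoxb2a, and replicate 2 lay inside the wildtype range, at 2.96 and 3.11 CPM.

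Group 3 held the Hox row with the highest CPM, a scale not corrected for gene length, and the one with the smallest edgeR p. hoxb3a (ENSDARG00000029263), a gene of the posterior hindbrain, had 73.1, 16.1 and 45.1 CPM in morphant libraries 1 to 3, against 16.3, 13.3 and 17.1 CPM in wildtype. Its log2 fold change was 1.57 (SE 0.52, unadjusted p = 0.0192 and adjusted p = 0.393, both from edgeR), and morphant replicate 2 was inside the wildtype range. hoxc3a (ENSDARG00000070339) had 39.5, 5.61 and 26.5 CPM in morphants against 6.04, 3.96 and 3.72 CPM in wildtype. This gave 2.55 (SE 0.65, unadjusted p = 0.00563 and adjusted p = 0.393, both from edgeR), and 1.99 within the TruSeq libraries. For hoxd3a (ENSDARG00000059280) the levels were 18.2, 2.99 and 16.6 CPM in morphants and 4.13, 2.96 and 3.27 CPM in wildtype, a log2 fold change of 1.97 (SE 0.69).

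Some of these genes have overlapping spans, and whether they share reads in this table was not tested. In RefSeq's GRCz12tu annotation, which is not the build the authors used, the span of hoxb3a overlaps hoxb4a, hoxb5a and hoxb6a, and that of hoxc3a overlaps hoxc4a, hoxc5a, hoxc6a, hoxc8a and hoxc9a. In the same annotation hoxb1b overlaps hoxb5b and hoxb6b, and hoxd3a overlaps hoxd4a. The use of strand and the handling of overlaps in the authors' counting are not stated by the labels or headers used here. Of the 32 rows with one RefSeq gene, 20 overlapped no other Hox gene, and the 18 of them that were tested had a median log2 fold change of 1.75, with 9 at an unadjusted p under 0.05. The 12 that overlapped had a median of 2.02, with 12 at an unadjusted p under 0.05. Of all genes tested, 7.62% were higher at that p. The 6 rows that keep a symbol were in neither set. Of the genes they may stand for, hoxb5a, hoxb5b and hoxc6a overlapped another Hox gene and the rest did not.

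Group 4 genes mark the posterior hindbrain and anterior spinal cord. hoxd4a (ENSDARG00000059276) had 21.3, 2.82 and 14.4 CPM in morphant libraries 1 to 3, against 3.35, 2.06 and 4.49 CPM in wildtype, a log2 fold change of 1.96 (SE 0.75, unadjusted p = 0.0352 and adjusted p = 0.393, both from edgeR). hoxb4a and hoxc4a had 1.92 (SE 0.69) and 1.78 (SE 0.72). In all 3 genes morphant replicates 1 and 3 lay above the wildtype range and morphant replicate 2 inside it.

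The central groups 5 to 8 pattern the trunk. All 10 of their genes were higher at an edgeR unadjusted p under 0.05, where 7.62% of all genes tested were. Among them hoxc5a and hoxb8b did not reach the filter's level in every wildtype library, so their passing leaned on the morphant libraries. The largest log2 fold change of the clusters was that of hoxc5a (ENSDARG00000070340), at 3.02 (SE 0.89, unadjusted p = 0.0114 and adjusted p = 0.393, both from edgeR). It rested on few reads, with 82, 28 and 108 counts in morphant replicates 1 to 3 and 10, 19 and 4 counts in wildtype libraries 1 to 3. With hoxc9a it was one of 2 Hox genes with a larger value within TruSeq (3.49 for hoxc5a) than within mRNA-Seq libraries (2.53). The name HOXB5 belongs to 2 rows that could not be assigned to hoxb5a and hoxb5b. ENSDARG00000013057 had 15.3, 2.04 and 6.93 CPM in morphants against 2.23, 2.75 and 2.76 CPM in wildtype, and ENSDARG00000054030 had 17.3, 1.697 and 14.1 CPM in morphants against 3.54, 2.17 and 2.18 CPM in wildtype. Morphant replicate 2 was below the wildtype range in both, and the log2 fold changes were 1.67 (SE 0.66) and 2.23 (SE 0.80).

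In groups 6 and 7, hoxb6a, hoxb6b, HOXC6 (ENSDARG00000070343, zebrafish copy not resolved) and hoxb7a had log2 fold changes of 2.17, 1.80, 1.57 and 2.07. Group 8 followed the same pattern. hoxb8a (ENSDARG00000056027), which is used in the spinal cord, had 28.8, 2.68 and 15.9 CPM in morphant libraries 1 to 3, against 3.54, 4.59 and 5.13 CPM in wildtype. Its morphant replicate 2 was below the wildtype range, and the log2 fold change was 1.85 (SE 0.75, unadjusted p = 0.0444 and adjusted p = 0.393, both from edgeR). The second copy, hoxb8b (ENSDARG00000054025), had lower levels, with 7.02, 0.633 and 4.53 CPM in morphants against 0.459, 0.898 and 0.641 CPM in wildtype, and a log2 fold change of 2.71 (SE 0.86). For hoxc8a (ENSDARG00000070346) there were 14.8, 2.04 and 9.64 CPM in morphants against 2.49, 2.17 and 2.11 CPM in wildtype, a log2 fold change of 2.07 (SE 0.68).

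The posterior groups 9 to 13 are genes of the posterior trunk, tail and fins, and 10 of their 15 tested genes were higher at an edgeR unadjusted p under 0.05, where 7.62% of all genes tested were. hoxb9a (ENSDARG00000056023), the second most abundant Hox row by CPM, had 61.6, 9.58 and 35.8 CPM in morphant libraries 1 to 3, against 9.25, 11.1 and 10.1 CPM in wildtype. Its log2 fold change was 1.88 (SE 0.59, unadjusted p = 0.0147 and adjusted p = 0.393, both from edgeR), with morphant replicate 2 inside the narrow wildtype range. hoxc9a (ENSDARG00000092809) had 16.0, 3.37 and 16.2 CPM in morphants against 3.41, 3.43 and 1.41 CPM in wildtype, which gave 2.49 (SE 0.69, unadjusted p = 0.00835). hoxa9b (ENSDARG00000056819) had 13.1, 2.99 and 16.8 CPM in morphants against 4.79, 4.33 and 4.23 CPM in wildtype, which gave 1.37 (SE 0.67, unadjusted p = 0.0792). In morphant replicate 2, hoxc9a was inside the wildtype range and hoxa9b below it. The fourth gene of the group, hoxd9a, had a log2 fold change of 1.49 (SE 0.65).

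In group 10, hoxc10a (ENSDARG00000070348) had 19.9, 3.51 and 15.8 CPM in morphant libraries 1 to 3, against 2.82, 3.59 and 2.18 CPM in wildtype, and hoxb10a (ENSDARG00000011579) had 17.9, 3.11 and 15.4 CPM in morphants against 4.46, 2.43 and 1.99 CPM in wildtype. Their log2 fold changes were 2.39 (SE 0.64) and 2.30 (SE 0.69), with edgeR unadjusted p of 0.00722 and 0.0126. Within the TruSeq libraries their values were 2.03 and 2.10. hoxa10b and hoxd10a had smaller values of 1.52 (SE 0.65) and 1.49 (SE 0.77).

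HOXA11 and hoxd12a were the 2 of 38 rows with every morphant library above every wildtype library, a smaller share than the 7.76% of all genes tested, and by library totals hoxd11a took the place of HOXA11. HOXA11 (ENSDARG00000007009, zebrafish copy not resolved), of a group that acts in fin and limb, had 16.3, 3.45 and 13.97 CPM in morphant libraries 1 to 3, against 3.22, 2.27 and 2.82 CPM in wildtype. hoxd12a (ENSDARG00000059263) had 9.94, 2.45 and 6.83 CPM in morphants against 1.64, 1.32 and 1.99 CPM in wildtype. Their log2 fold changes were 2.10 (SE 0.63, edgeR unadjusted p = 0.0125) and 1.99 (SE 0.61, edgeR unadjusted p = 0.0137). hoxc11a, HOXC12, HOXC13 and hoxd13a lay between 1.68 and 1.76. hoxd11a had 1.39 (SE 0.76), with 2 counts in wildtype replicate 1. Only hoxa13b and hoxb13a failed the filter on low counts. hoxa13b had 26, 26 and 7 counts in morphants against 8, 3 and 3 counts in wildtype, and hoxb13a had 50, 5 and 27 counts in morphants against 4, 7 and 4 counts in wildtype.

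Read along the clusters, the difference showed no steep gradient. The median log2 fold change was 1.92 over the 11 genes of groups 1 to 4, 2.07 over the 10 genes of groups 5 to 8 and 1.75 over the 15 tested genes of groups 9 to 13, and single genes within each stretch spread by more than the medians differ. Without morphant replicate 1 the medians were 0.86, 1.28 and 1.14. By cluster letter, the median was 1.45 for 4 tested A genes, 1.90 for 14 B genes, 2.07 for 11 C genes and 1.75 for 7 D genes. The summed level of the A genes was 51.6, 13.1 and 49.4 CPM in morphant libraries 1 to 3, against 13.6, 10.2 and 15.4 CPM in wildtype, and that of the C genes was 153, 25.98 and 120 CPM in morphants against 28.6, 23.3 and 22.04 CPM in wildtype. No test was made between clusters or stretches, because genes of a cluster share libraries and neighbours.

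**Figure D3:**
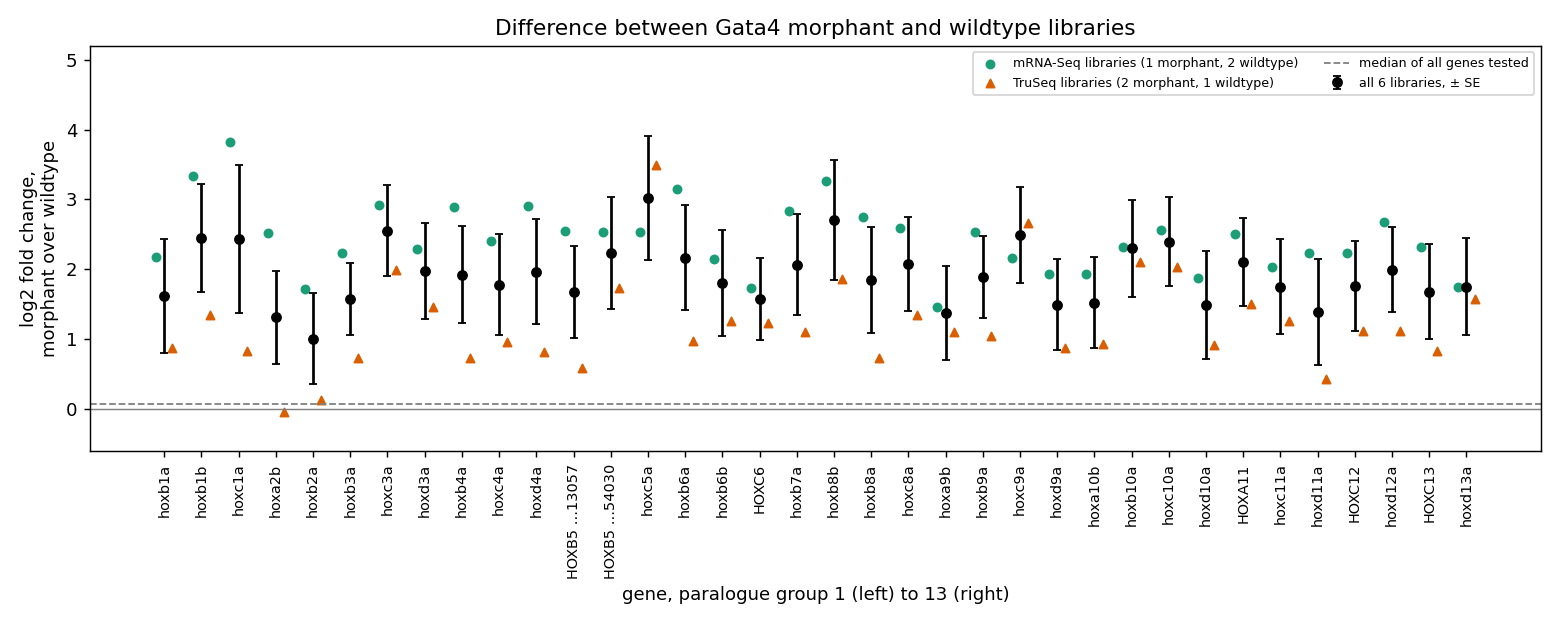
Log2 fold change (morphant over wildtype) of the 36 tested Hox genes, ordered from paralogue group 1 to 13; black points with SE bars use all 6 libraries, green circles the mRNA-Seq libraries and orange triangles the TruSeq libraries, and the dashed line is the median of all genes tested. All black points lie above 1, and the TruSeq value is below the mRNA-Seq value for all but hoxc5a and hoxc9a.

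The makeup of the Hox transcripts was similar in all libraries although their total was not. Groups 1 to 4 held 42.0%, 40.0% and 37.7% of the Hox CPM in morphant libraries 1 to 3, against 42.0%, 35.3% and 44.1% in wildtype libraries 1 to 3. Groups 9 to 13 held 36.7%, 43.1% and 41.5% in morphants against 39.9%, 43.5% and 37.1% in wildtype. Across the 38 genes, Pearson's r of log2(CPM + 1) was 0.813 to 0.904 over the 9 pairs of a morphant with a wildtype library, 0.832 to 0.916 over the 3 morphant pairs and 0.809 to 0.836 over the 3 wildtype pairs. These are descriptions across genes, which share gene length and library and are no replicates.

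Per length, in the authors' RPKM (reads scaled by gene length and library size), Hox levels were low and their order was much alike in both groups. The mean RPKM over the libraries of a group was at least 1 for 36 of the 38 genes in morphants and for 23 in wildtype. HOXC12 (ENSDARG00000070352) with 10.3 ± 5.83 RPKM and hoxb3a with 9.72 ± 6.27 RPKM came first in morphants (SD, n = 3), and hoxb3a with 3.34 ± 0.422 RPKM, HOXC12 with 3.10 ± 0.935 RPKM and hoxa9b with 2.93 ± 0.116 RPKM in wildtype (SD, n = 3). These neighbours did not differ beyond their spread. hoxb1b stood at place 4 in morphants and at place 19 in wildtype, and hoxc1a at 11 and 23. hoxa13b, hoxb13a and hoxc5a took the last 3 places in both groups, and Spearman's rho between the group means was 0.875 over the 38 genes.

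Within each kit nearly all Hox genes were higher in morphants, by different amounts. Within mRNA-Seq libraries, morphant replicate 1 against wildtype replicates 1 and 2, the 38 log2 fold changes ran from 1.45 to 3.82 with a median of 2.45, and 51.8% of all genes were positive. edgeR called 33 of them higher there, where 9.65% of all genes were, with 1 morphant library assumed to vary like the wildtype pair. Within TruSeq libraries, morphant replicates 2 and 3 against wildtype replicate 3, they ran from -0.051 to 3.49 with a median of 1.11, and 37 were positive, where 52.8% of all genes were. There edgeR called 0 Hox genes (0.0051% of all genes) and 2 had an unadjusted p under 0.05 (1.69% of all genes). In TruSeq libraries taken singly, morphant replicate 3 was above wildtype replicate 3 in 38 of 38 rows with a median ratio of 3.64, and morphant replicate 2 in 10 of 38 rows with a median ratio of 0.880. The shares of all genes for these pairs of libraries were not computed. A test of the difference between kits called 0 Hox genes (edgeR kit by group term, 0% of all genes, and 0 Hox genes at an unadjusted p under 0.05), and the kits cannot be told apart from the libraries that fill them.

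Genes that work with Hox proteins, and genes that set Hox expression, were read from gene lists. At an unadjusted edgeR p under 0.05, 7.62% of all genes tested were higher and 4.92% were lower, and each list is read against these shares. With all libraries 0 genes of any list passed adjustment, and without morphant replicate 2 the all-gene shares called were 8.19% higher and 11.5% lower. Of 11 rows of Meis, Pbx and Pknox cofactors, 10 were tested, 9 were positive, the median log2 fold change was 1.05, and 2 were higher and 0 lower at an edgeR unadjusted p under 0.05. The fit lacking morphant replicate 2 called 5 of 10 higher at an adjusted p under 0.05. MEIS1 (ENSDARG00000012078) had 137, 25.4 and 83.3 CPM in morphant libraries 1 to 3, against 34.4, 27.1 and 29.7 CPM in wildtype, a value of 1.51 (SE 0.53), and meis2b and meis3 stood at 1.13 (SE 0.43) and 1.11 (SE 0.47) on the log2 fold change scale. Of 43 rows of regulators, mostly of retinoic acid signalling, Cdx and Polycomb, 41 were tested, 33 were positive with a median of 0.78, and 14 were higher and 2 were lower at an edgeR unadjusted p under 0.05, those lower being near the all-gene share. With morphant replicate 2 left out, 11 of 42 were called higher and 2 lower. cdx4, a caudal factor that opens posterior Hox genes, had 20.5, 1.64 and 9.22 CPM in morphants against 2.56, 2.69 and 1.15 CPM in wildtype, a log2 fold change of 2.61 (SE 0.71), with adjusted p of 0.393 from edgeR and 0.0387 from DESeq2. rxrga, a retinoid X receptor gene, had a value of the other sign, -1.71 (SE 0.46), with adjusted p of 0.393 by edgeR and 0.0417 by DESeq2. Of evx and ParaHox genes, relatives of the Hox clusters, 4 of 5 rows were tested and all 4 were positive, with 0 at an edgeR unadjusted p under 0.05.

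Markers of other tissues that use Hox genes followed the morphant libraries in part. The summed levels of pronephros and tailbud markers in morphant replicates 1 and 3 were above the wildtype range. The same held for endoderm, neural crest, lateral plate and fin, and epidermal markers, which are given further on. The sum of hindbrain and spinal cord markers was above it only in morphant replicate 1, and that of somite and skeletal muscle markers only in morphant replicate 3. Sums weigh abundant rows most, and single rows of both lists are given below. Pronephros markers, 15 rows, summed to 274, 91.3 and 362 CPM in morphant libraries 1 to 3, against 115, 104 and 114 CPM in wildtype, and 8 of 14 tested genes were higher and 1 was lower at an edgeR unadjusted p under 0.05. Without morphant replicate 2, 7 of 14 were called higher and 1 lower. Among them CDH17, a kidney duct cadherin, had 81.0, 10.8 and 74.5 CPM in morphants against 5.91, 11.9 and 7.56 CPM in wildtype. Hindbrain and spinal cord markers, 30 rows, summed to 1106, 615 and 855 CPM in morphants and to 673 to 966 CPM in wildtype, and 14 of 27 tested were higher and 1 was lower at an unadjusted p under 0.05. Lacking morphant replicate 2, 16 of 29 were called higher and 1 lower. her4.1, a Notch target of neural progenitors, had a log2 fold change of 3.44 (SE 0.80) and PHOX2A, a factor of hindbrain motor neurons, had 2.11 (SE 0.58). Both were low, her4.1 with 8.76, 0.863 and 4.74 CPM in morphants against 0.459, 0.687 and 0.384 CPM in wildtype. PHOX2A had 1.49, 0.921 and 1.72 CPM in morphants against 0.328, 0.317 and 0.320 CPM in wildtype. Somite and skeletal muscle markers, 22 rows, summed to 2129, 1074 and 2538 CPM in morphants and 1706 to 2282 CPM in wildtype. Of 17 tested, 14 had a positive log2 fold change, with 9 higher and 0 lower at that p. Without morphant replicate 2, 12 of 19 were called higher. CHRNA1 had 34.5, 12.3 and 51.3 CPM in morphants against 4.46, 5.97 and 11.5 CPM in wildtype. For MYOG the levels were 54.9, 4.72 and 43.7 CPM in morphants and 4.59, 4.01 and 8.65 CPM in wildtype. An abundant row of the sum, ACTA1 (ENSDARG00000055618), had 491, 374 and 672 CPM in morphants against 859, 592 and 682 CPM in wildtype. Tailbud markers, 13 rows, summed to 138, 68.1 and 114 CPM in morphants and 74.3 to 103 CPM in wildtype, with 4 of 9 tested higher and 0 lower at that p, and 7 of 12 called higher without morphant replicate 2. No matched row of these markers was at 0 in every library, and listed markers without a matched row, such as nkx6.1, desma and wnt5b, were not read. Some lists share genes, since cdx4 is also a tailbud marker. Their part in the Hox result was not tested.

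Other lists behaved in several ways. Endoderm markers, 5 rows, summed to 51.6, 16.3 and 46.9 CPM in morphant replicates 1 to 3 and 16.5 to 24.8 CPM in wildtype, and neural crest markers, 14 rows, to 296, 130.1 and 235 CPM in morphants and 144 to 196 CPM in wildtype. At an edgeR unadjusted p under 0.05, 2 of 4 tested endoderm markers were higher and 0 lower. Of 14 neural crest markers, 3 were higher and 1 was lower at that p. Without morphant replicate 2 the calls were 2 of 4 higher for endoderm, and 3 of 14 higher and 1 lower for neural crest. Lateral plate and fin markers, 13 rows, had a median log2 fold change of 0.54, with 0 of 10 tested at an edgeR unadjusted p under 0.05, and epidermal markers, 10 rows, had 0.98, also with 0. The lateral plate and fin sums were 118, 76.5 and 156 CPM in morphant libraries 1 to 3, against 63.7 to 104 CPM in wildtype. For epidermis they were 14191, 4100 and 7682 CPM in morphants, against 4727 to 5538 CPM in wildtype. Much of the epidermal sum in morphant replicate 1 was krt4, with 8417, 672 and 2263 CPM in morphants against 972, 1555 and 1609 CPM in wildtype. Of the 10 epidermal markers, 8 had a positive log2 fold change. Without morphant replicate 2, 2 of 12 lateral plate and fin markers and 1 of 10 epidermal markers were called higher. Leukocyte markers, 20 rows, ran the other way, with 1355, 12533 and 3159 CPM in morphants against 7058, 10756 and 14140 CPM in wildtype, and 5 of 19 tested were lower at an unadjusted p under 0.05. When morphant replicate 2 was left out, edgeR called 15 of these 19 lower after adjustment, where 11.5% of all genes were called lower. Endothelial markers, 6 rows, had a median of -0.38 with 2 lower, and erythroid markers, 9 rows, had -0.13 with 0, and neither list had a call without morphant replicate 2. Of 20 heart muscle markers tested, 0 were higher and 9 lower at an edgeR unadjusted p under 0.05, and without morphant replicate 2, 1 was called higher and 7 lower. Thus the Hox rows were high in the morphant libraries where leukocyte markers were low, and morphant replicate 2 was inside the wildtype range for both. Endoderm, pronephros, neural crest and epidermal sums were high in the same libraries. Heart muscle sums followed another pattern, at 0.650, 0.366 and 0.466 of the wildtype mean in morphant libraries 1 to 3, each below every wildtype library. What part of the Hox difference goes with cell makeup was not tested.

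**Figure D4:**
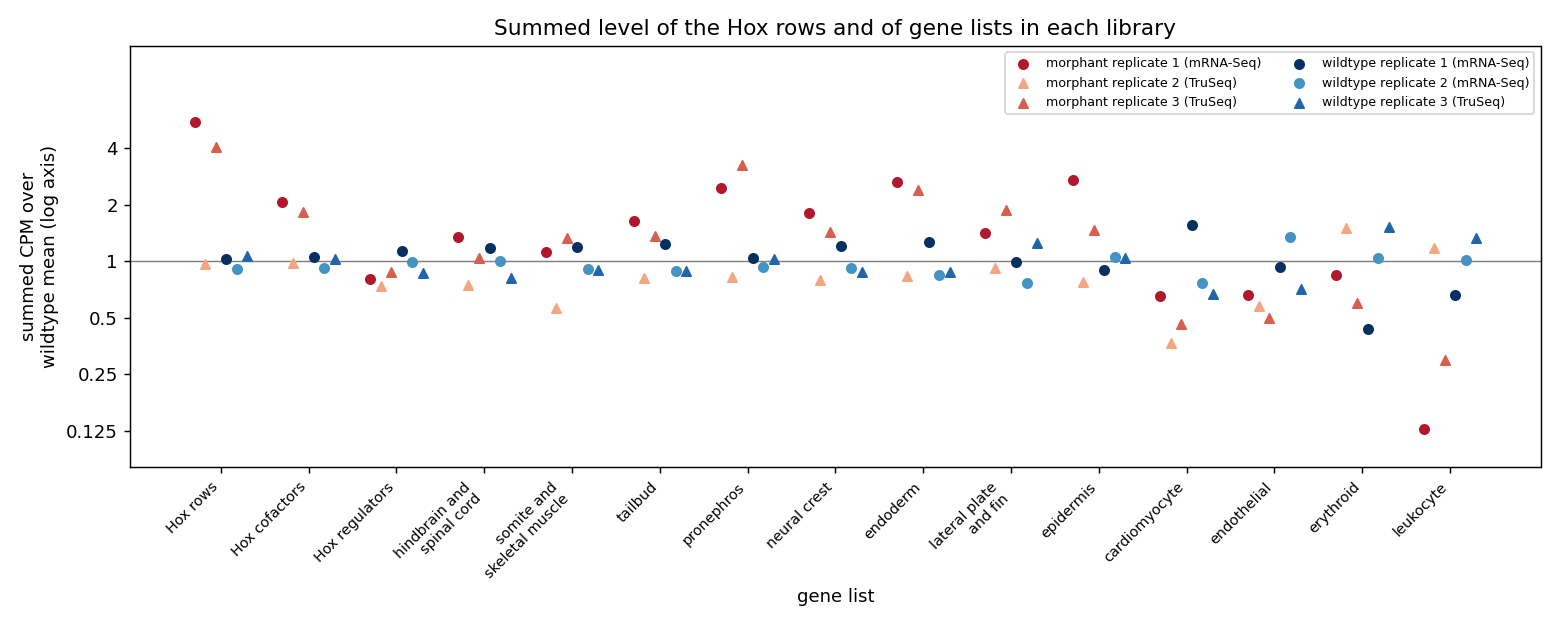
Summed CPM of the Hox rows and of each gene list in each library, divided by the wildtype mean of that list (log axis); red tones are Gata4 morphant and blue tones wildtype libraries, circles mRNA-Seq and triangles TruSeq. The Hox rows show the widest gap of morphant replicates 1 and 3 above wildtype, at 5.51 and 4.05, with pronephros at 2.46 and 3.25 and endoderm at 2.65 and 2.40, while leukocyte markers lie at 0.127 and 0.297 in the same libraries.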

How the data were processed

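RNA from cells sorted for the myl7 reporter was sequenced as 6 libraries, whose groups follow the labels. A single table deposited by the authors holds raw counts for each Ensembl gene, per the file headers, with columns matched by library name. Replicates were numbered by accession, which names a library and pairs none. BWA, DESeq, CASAVA 1.7.0 and the build Zv9 appear in the submitters' processing notes, with no role or order. Counting tool, annotation and use of strand were not given in the sources read. RPKM values were deposited by the authors, above 0 where a count is 0, and served only to order levels between genes. P-values and adjusted p-values, base means (a normalized signal) and a fold (ratio) of wildtype over morphant were also deposited by the authors. Of these only their calls, their direction and the smallest adjusted p of Hox genes were used.

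Gene names came from a name table that matched 19189 of 27456 rows. Of the 38 Hox rows, 12 carry a zebrafish name there, 20 a human-form symbol for which RefSeq (GRCz12tu) lists 1 zebrafish gene still unnamed, whose name is used, and 6 keep the symbol. The test on counts was that of edgeR 4.0.16 under R 4.3.3 (TMM scaling, filterByExpr with a minimum count of 10, terms for kit and group, two-sided quasi-likelihood F test, Benjamini-Hochberg adjustment over 18033 genes, threshold 0.05, prior count 0.125, 3 residual degrees of freedom). SE is the absolute log2 fold change over the root of F. DESeq2 1.42.0 and limma 3.58.1 were alternatives, as were other scaling, no filter, no kit term, single kits and leaving out each library, and the test was tried on simulated data. Libraries of a group all differed by more than sampling noise (chi-square per gene 55.9 to 401). Values in every library are given for the 12 tested Hox genes with the smallest p and the 12 with the highest mean CPM, 16 genes in all. They are also given for others chosen after their values were seen (hoxb1a, hoxc1a, both HOXB5 rows, hoxd11a, hoxa13b and hoxb13a). Of each other list at most the 3 genes with the smallest p are named, and an ACTA1 row is named for its high level. Lists were matched by symbol, with every row of a human-form symbol. The members and lists were chosen with earlier results of these data known. A listed gene is not reported here.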

Additional observations from a re-analysis of the deposited data

How the results depend on the processing

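The sign of the Hox genes moved little and the number of calls moved much. Every setting kept morphant replicate 1 or 3, so the sign had little room to turn and does not show a direction shared by all libraries. Morphant replicate 2 taken singly was above wildtype replicate 3 in 10 of 38 rows, with a median ratio of 0.880, and the share of all genes was not computed for this pair. Of those tested, 36 of 36 were positive with all libraries, 35 of 36 without morphant replicate 1 and 37 of 38 within TruSeq libraries. Among all genes, 0 were called in the fit of all libraries, against 327 with DESeq2, 44 with no filter on low counts, 4352 within mRNA-Seq libraries and 1 within TruSeq libraries. For Hox genes, DESeq2 called 4 and the mRNA-Seq libraries 33, against 0. Of Hox genes at an unadjusted p under 0.05 there were 13 with limma-voom and 2 within TruSeq libraries, against 27. Within TruSeq libraries the median log2 fold change was 1.11 over all Hox genes, 0.82 for paralogue groups 1 to 4, 1.24 for groups 5 to 8 and 1.11 for groups 9 to 13. hoxa2b was the gene whose sign turned, at -0.051 within TruSeq libraries. Leaving out each library in turn gave 0 to 3745 genes called, 0 to 33 Hox genes called and 2 to 36 Hox genes at an unadjusted p under 0.05, with the highest value of each without morphant replicate 2. It gave medians of 1.14 to 2.48 over all Hox genes, 0.86 to 2.54 for groups 1 to 4, 1.28 to 2.60 for groups 5 to 8 and 1.14 to 2.25 for groups 9 to 13, and -0.021 to 2.54 for hoxa2b. With 1 library left in a kit and group, that library is assumed to vary like the others. The cause of these shifts was not tested. No paired analysis was possible because the labels give the libraries no shared replicate numbers. Among tested Hox genes the mean CPM over all libraries was lowest for hoxd11a, with 36, 47 and 56 counts in morphants and 2, 14 and 23 counts in wildtype, and its SE was 0.76.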
